A study of Mus musculus with 12 samples.

Results

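The enzymes of tryptophan breakdown along the kynurenine pathway were followed in whole mouse lung. The members were 6 genes taken by symbol (Tdo2, Ido1, Afmid, Kmo, Kynu and Haao), and each matched 1 row of the deposited read count table, which holds 54532 gene identifiers. All 6 had enough counts to be tested, among 17473 tested genes. The study compared lungs of Cc10-Cre;Rhoafl/fl mice (called CKO here), in which Rhoa is floxed, with lungs of Cc10-Cre mice (WT), each after CRE or PBS. Rhoa encodes a small GTPase that controls the actin cytoskeleton. Poly(A) RNA of whole lung was sequenced, and the series title places the study in allergic airway inflammation.

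The groups were CKO lungs given CRE (CKO_CRE), WT lungs given CRE (WT_CRE), CKO lungs given PBS (CKO_PBS) and WT lungs given PBS (WT_PBS), with 3 libraries each. The labels do not spell out CRE, and it is a treatment, distinct from the Cre recombinase. The recombinase was carried by all 4 groups, controls included. The Cc10 promoter drives Cre in club cells, a secretory cell type of the airway lining (also called Clara cells). Which lung cells lost Rhoa was not measured here. The labels give no strain, age or time of treatment, and they do not state that libraries of a group came from separate animals, so the p-values measure the spread between libraries.

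Most dietary tryptophan that is not built into protein is broken down through kynurenine. Tryptophan 2,3-dioxygenase (Tdo2), best known from hepatocytes, or indoleamine 2,3-dioxygenase (Ido1), an enzyme that interferon gamma induces in many tissues, opens the indole ring in the first step. The later enzymes lead toward quinolinate and NAD, and kynurenine and its products can act on immune cells, in part through the aryl hydrocarbon receptor.

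Promoter sequence was available for 4 of the 6 genes (Tdo2, Afmid, Kmo and Haao) in the RefSeq table of the build GRCm38.p6. The 250 bases before each start site were searched on both strands for a STAT6 motif (TTC and GAA with any 4 bases between), an interferon response motif (GAAA and GAAA with any 2 bases between) and the core letters of the aryl hydrocarbon receptor motif (GCGTG). For Tdo2, Kmo and Haao the RefSeq start lay inside the gene span given below. Bases before the 5′ end of that span were not searched. The only matches were 1 GCGTG before Tdo2 and 1 before Haao, so neither overlapped another of these motifs. This motif was held by 28.2% of 32851 promoters. The other motifs were held by 5.85% (STAT6) and 2.98% (interferon response) of the same promoters. The matched stretches are shown because Tdo2 is the member whose values differed most between the groups, and Haao is the only other member with a match. Each is given 5′ to 3′ on the strand of its gene, with the matched letters in capitals (CACGC is GCGTG read on the opposite strand).
Tdo2, chr3:81975905-81975934, minus strand: tagagggtttggCACGCcctgctagcaaac
Haao, chr17:83846910-83846939, minus strand: atccctgctccgGCGTGtgtgcaggggcag
A match describes these letters and does not show that a factor binds there.

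Library totals ran from 16250674 to 21559210 counts. Values are given as CPM, the counts of a gene scaled to its library size. The first principal component of all tested genes held 64.4% of the variance, and it set the CRE libraries apart from the PBS libraries. CKO_CRE replicate 2 scored 82.6 on it, inside the WT_CRE range of 71.6 to 84.7, whereas the other CKO_CRE libraries scored 10.1 and 31.2. Read from X- and Y-linked transcripts, 2 of 3 CKO_CRE, 2 of 3 WT_CRE, 1 of 3 CKO_PBS and 0 of 3 WT_PBS mice were female. WT_PBS replicate 3 and CKO_CRE replicate 2 carried more hepatocyte transcripts than the other libraries, as given beside Tdo2. Rhoa itself averaged 502 ± 40.0 CPM in CKO_CRE and 525 ± 5.28 CPM in WT_CRE lungs (SD, n = 3 each), a log2 difference of -0.07 ± 0.10 (SE; adjusted p = 0.728 by edgeR). It averaged 449 ± 45.1 CPM in CKO_PBS and 481 ± 8.88 CPM in WT_PBS lungs (-0.10 ± 0.10; adjusted p = 1). Club cells are a minority of lung cells, so the level in whole lung is no check of the genotype labels. Surfactant genes and other markers of type 2 alveolar cells, which define lung tissue, summed to 21030 to 28956 CPM.

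Tdo2, Kynu and Afmid rose under CRE in both genotypes, and Tdo2 was the only member called between the genotypes by edgeR. CRE raised Tdo2 2.44-fold in CKO lungs and 12.3-fold in WT lungs, and CKO_CRE lungs held 0.227 of the WT_CRE level. Ido1, which shares the first step with Tdo2, passed the test in no comparison. A gene was called at a Benjamini-Hochberg adjusted p below 0.05 in edgeR's quasi-likelihood test over all tested genes. All adjusted p-values here are from that test unless another tool is named, and log2 fold changes are given ± SE.

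**Figure D1:**
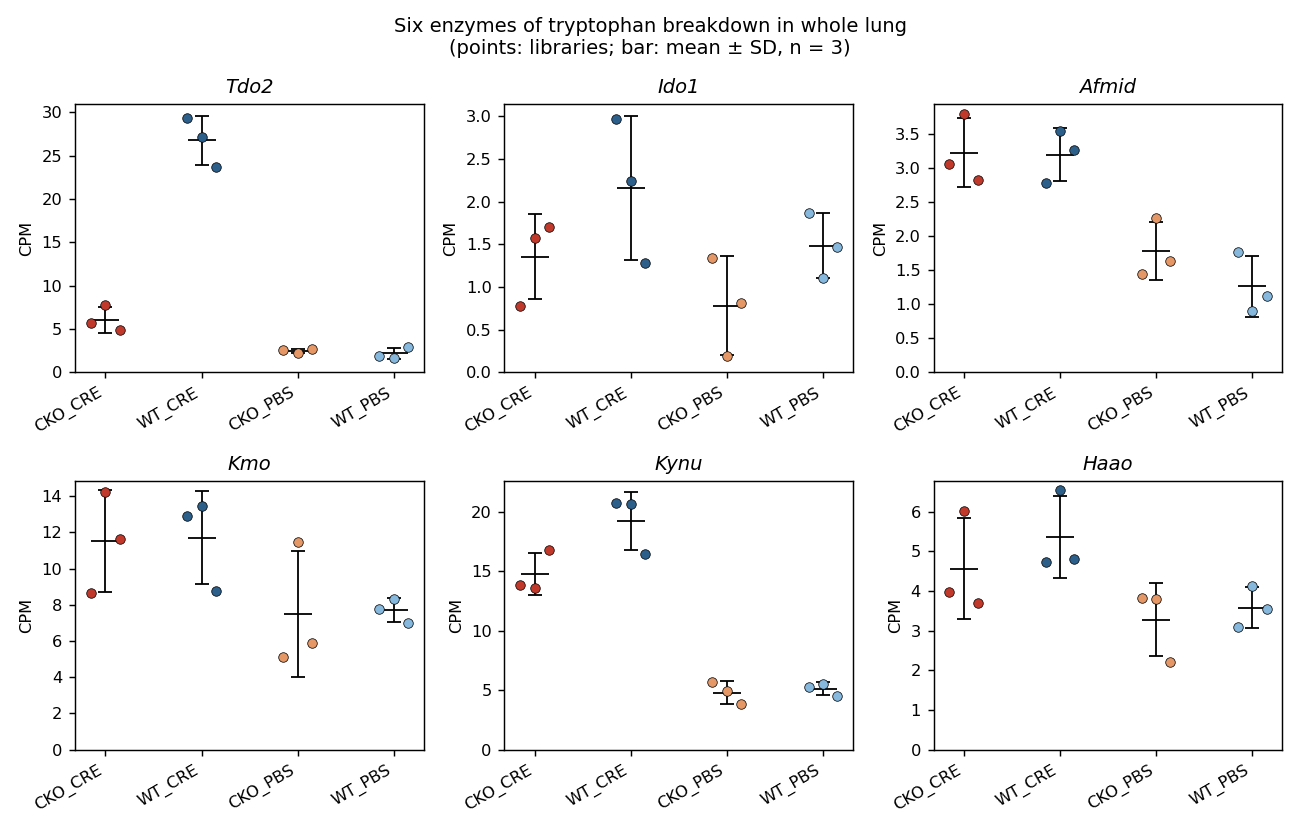
CPM of each of the 6 enzymes on the y axis in the 3 libraries of each group (points, with the mean and SD as bars; the y axes differ between panels). Tdo2 lies between 23.7 and 29.4 CPM in WT_CRE lungs and at most at 7.71 CPM in any other library. Kynu is higher in all CRE libraries than in all PBS libraries. Such a separation was seen for 24.3% of all tested genes in CKO and 34.4% in WT lungs.

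In the CRE against PBS comparisons, 3 of the 6 members were called higher in CKO lungs, where 20.6% of all tested genes were called higher and 18.5% lower. Likewise 3 of 6 were called higher in WT lungs, where 28.6% were called higher and 28.4% lower. They were Tdo2, Afmid and Kynu in both genotypes, and no member was called lower. The median log2 change of the 6 members was 0.83 in CKO and 0.97 in WT lungs, against 0.00 in CKO and 0.01 in WT lungs for all tested genes. In whole lung, more cells of a type that holds a transcript and more transcript per cell cannot be told apart.

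Tdo2 (ENSMUSG00000028011) lies on the minus strand at chr3:81957090-81976202 (GRCm38). Its level was 5.65, 7.71 and 4.82 CPM in CKO_CRE, 29.4, 27.1 and 23.7 CPM in WT_CRE, 2.58, 2.22 and 2.64 CPM in CKO_PBS and 1.92, 1.66 and 2.95 CPM in WT_PBS lungs. The WT_CRE libraries stood above all others, the CKO_CRE libraries lay between them and the PBS libraries, and only the PBS groups overlapped. Of all tested genes, 24.3% separated upward under CRE in CKO and 34.4% in WT lungs, and 7.69% separated downward in CKO_CRE against WT_CRE lungs. The Tdo2 values rest on 33 to 496 counts per library. Within males, Tdo2 was 5.65 CPM in CKO_CRE and 29.4 CPM in WT_CRE (n = 1 each), 2.58 and 2.64 CPM in CKO_PBS, and 1.66 to 2.95 CPM in WT_PBS. Within females it was 7.71 and 4.82 CPM in CKO_CRE, 27.1 and 23.7 CPM in WT_CRE and 2.22 CPM in CKO_PBS, so CKO_CRE lay below WT_CRE and above CKO_PBS in both sexes. CRE raised Tdo2 by 1.29 ± 0.23 on the log2 scale in CKO lungs (adjusted p = 0.00141) and by 3.63 ± 0.23 in WT lungs (adjusted p = 1.65e-06). Both calls held in all 20 alternative fits.

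Under CRE, Tdo2 averaged 6.06 ± 1.49 CPM in CKO lungs and 26.7 ± 2.84 CPM in WT lungs (SD, n = 3 each), a log2 difference of -2.14 ± 0.21 (adjusted p = 0.000549). It was the 1 member of 6 called between the genotypes under CRE, where 0.366% of all tested genes were called lower and 0.549% higher. The background of 160 called genes became 5112 without CKO_CRE replicate 2. The Tdo2 call held in all 20 alternative fits, with log2 differences from -2.49 to -2.00. Under PBS, Tdo2 averaged 2.48 ± 0.231 CPM in CKO and 2.18 ± 0.679 CPM in WT lungs, with a log2 difference of 0.20 ± 0.24, a 95% interval of -0.36 to 0.75 and an adjusted p of 1.

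The CRE response of Tdo2 was smaller in CKO than in WT lungs by 2.34 ± 0.32 on the log2 scale, the interaction of genotype and treatment (95% interval -3.07 to -1.60, adjusted p = 0.0458). Of all tested genes, 0.0114% were called with a lower response in CKO and 0.0343% with a higher one, so Tdo2 was 1 of 2 genes called lower. The adjusted p lay close to the threshold: the call was lost in 11 of 19 alternative fits. Over all 19 the log2 value stayed between -2.82 and -2.17, and the adjusted p ran from 2.92e-08 to 0.221. Among the fits that lost it were the one with sex as a covariate (-2.37, adjusted p = 0.0614) and 9 of the 12 that each left out 1 library: each WT_PBS replicate but the third, every CKO_PBS and WT_CRE replicate, and CKO_CRE replicate 3, with adjusted p-values from 0.0736 to 0.221. Without CKO_CRE replicate 2 the adjusted p was 0.000568.

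**Figure D2:**
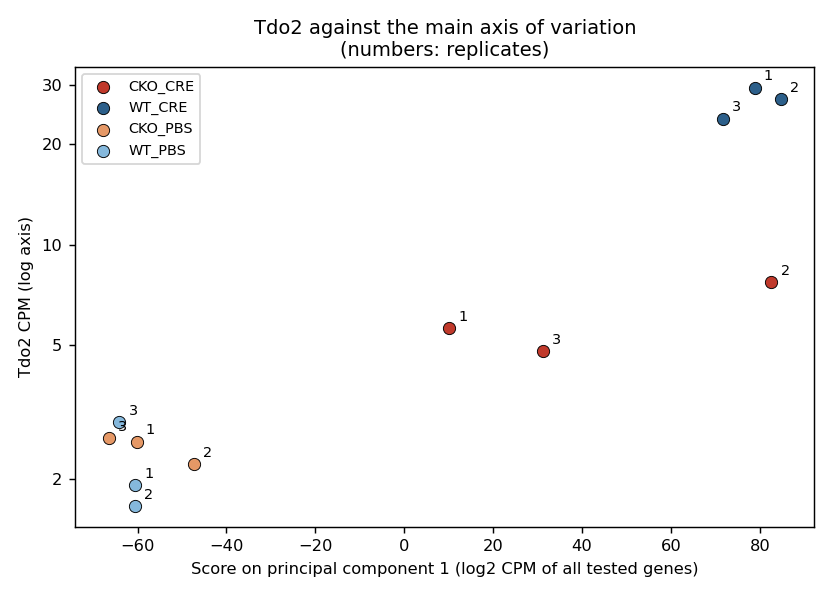
CPM of Tdo2 (log axis) against the score of each of the 12 libraries on the first principal component of all tested genes, with replicate numbers beside the points. CKO_CRE replicate 2 scores 82.6, among the WT_CRE libraries, but has 7.71 CPM of Tdo2, against 23.7 to 29.4 CPM in them.

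Hepatocytes express Tdo2 strongly, and 7 hepatocyte markers (Alb, Apoa1, Apoa2, Ttr, Fgb, Ahsg and Cyp3a11) were therefore summed in each library. The sum was 3.85, 18.1 and 3.29 CPM in CKO_CRE, 7.00, 4.04 and 6.26 CPM in WT_CRE, 1.40, 2.08 and 2.07 CPM in CKO_PBS and 2.22, 5.09 and 33.8 CPM in WT_PBS lungs. Of the 7 markers, 0 to 5 were at 0 in a library, and none was at 0 in CKO_CRE replicate 2 or in WT_PBS replicates 2 and 3. CKO_CRE replicate 2 and WT_PBS replicate 3, with the most albumin transcript of their groups (10.1 and 23.6 CPM), also had the highest Tdo2 level of their groups. The markers differed among themselves under CRE. Albumin was 0.0546 to 0.321 CPM in the WT_CRE libraries, which had the most Tdo2. Ahsg, a secreted plasma protein gene, rose under CRE by 2.23 ± 0.32 in CKO (adjusted p = 0.000484) and by 1.87 ± 0.30 in WT lungs (adjusted p = 0.000357), and it averaged 4.88 CPM in WT_CRE and 1.33 CPM in WT_PBS lungs. The part of these markers in the Tdo2 result was not tested beyond leaving libraries out. Without both libraries, an alternative chosen after the values were seen, the CRE response of Tdo2 was 1.08 in CKO lungs (adjusted p = 0.00108) and 3.89 in WT lungs (adjusted p = 1.98e-07), and the log2 difference between CKO and WT under CRE was -2.35 (adjusted p = 4.64e-05).

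Ido1 (ENSMUSG00000031551, chr8:24584136-24597009, minus strand) was the lowest member by counts, with 4 to 47 per library. It had 0.781, 1.58 and 1.71 CPM in CKO_CRE, 2.96, 2.24 and 1.28 CPM in WT_CRE, 1.34, 0.185 and 0.817 CPM in CKO_PBS and 1.87, 1.11 and 1.47 CPM in WT_PBS lungs. The groups overlapped in every comparison, and CKO_PBS replicate 2 was the lowest library. Its log2 change under CRE was 0.80 ± 0.56 in CKO lungs (95% interval -0.49 to 2.10, adjusted p = 0.273) and 0.54 ± 0.52 in WT lungs (-0.66 to 1.73, adjusted p = 0.397). The value in CKO lungs was 0.33 without CKO_PBS replicate 2 and 1.43 without CKO_PBS replicate 1. Both 95% intervals include no change, and the one in WT lungs lies below the 3.63 measured for Tdo2. The log2 difference between CKO and WT was -0.66 ± 0.53 under CRE (-1.88 to 0.55, adjusted p = 0.501) and -0.93 ± 0.55 under PBS (-2.21 to 0.34, adjusted p = 1).

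The first step was also described per kb of exon, which makes the transcripts of Tdo2, Ido1 and Ido2 (a weaker relative of Ido1) comparable in level. Their summed level averaged 2.39 ± 0.511 CPM per kb in CKO_CRE, 8.22 ± 1.25 in WT_CRE, 1.18 ± 0.332 in CKO_PBS and 1.45 ± 0.237 in WT_PBS lungs (SD, n = 3 each). Tdo2 made up 53.5% to 75.9% of this sum in CKO_CRE, 80.2% to 88.2% in WT_CRE, 44.3% to 68.2% in CKO_PBS and 32.0% to 47.0% in WT_PBS lungs. The share in WT_CRE lungs lay above that of every other library. Ido2 and Il4i1, another enzyme that oxidises tryptophan, had too few counts to be tested.

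**Figure D3:**
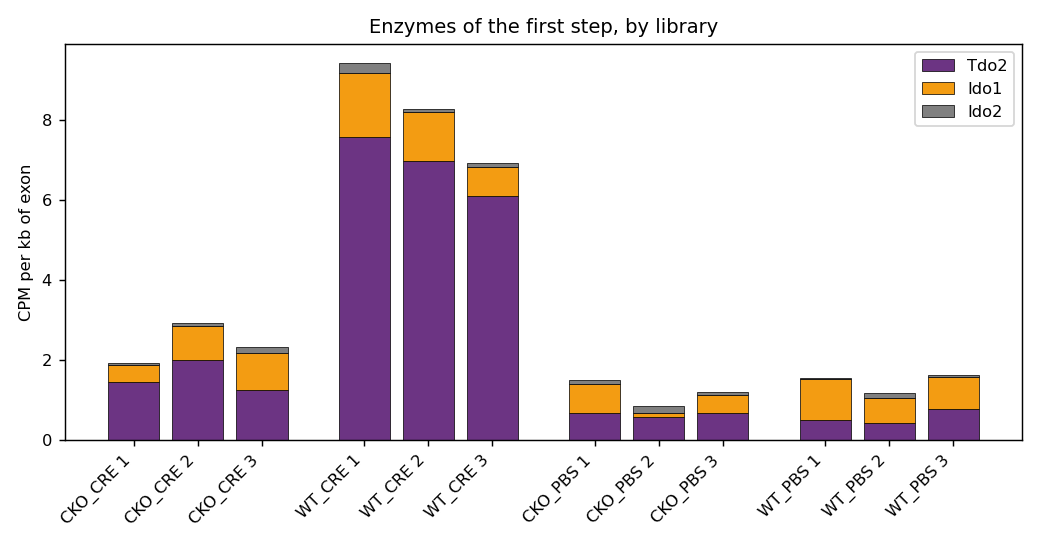
Stacked levels (CPM per kb of exon) of Tdo2, Ido1 and Ido2 in each of the 12 libraries. The WT_CRE bars are the tallest and consist mostly of Tdo2 (80.2% to 88.2%), and the sum averages 2.39 CPM per kb in CKO_CRE against 8.22 in WT_CRE lungs.

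Afmid (ENSMUSG00000017718, chr11:117825924-117839908, plus strand) encodes the formamidase that releases kynurenine from N-formylkynurenine. It had 3.06, 3.80 and 2.82 CPM in CKO_CRE, 2.78, 3.55 and 3.26 CPM in WT_CRE, 1.45, 2.26 and 1.63 CPM in CKO_PBS and 1.77, 0.907 and 1.12 CPM in WT_PBS lungs. All CRE libraries stood above all PBS libraries, as for 24.3% of all tested genes in CKO and 34.4% in WT lungs. For Afmid the genotypes overlapped under each treatment. CRE raised it by 0.85 ± 0.28 on the log2 scale in CKO lungs (adjusted p = 0.03) and by 1.33 ± 0.29 in WT lungs (adjusted p = 0.00211). The call in CKO lungs was lost in 6 of 20 alternative fits, and the call in WT lungs was kept in all 20. It was lost without CKO_PBS replicate 1 (adjusted p = 0.0993), CKO_PBS replicate 3 (0.0917) or CKO_CRE replicate 2 (0.099). With sex as a covariate the value in CKO lungs was 0.77 (adjusted p = 0.0538). The adjusted p was 0.0607 with only the groups compared and 0.118 without both libraries with hepatocyte transcripts. The log2 difference of CKO against WT was 0.01 ± 0.27 under CRE (95% interval -0.62 to 0.64) and 0.49 ± 0.29 under PBS (-0.18 to 1.17). The Afmid values are uncertain, because the gene overlaps Tk1 on the opposite strand and shares near-identical sequence with the read-through gene Gm20708, listed at 0 counts. Tk1, a DNA synthesis gene, rose under CRE by 1.76 ± 0.17 in CKO (adjusted p = 5.61e-05) and by 1.85 ± 0.17 in WT lungs (adjusted p = 1.4e-05), and its part in the Afmid values was not tested.

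Kmo (ENSMUSG00000039783, chr1:175620381-175662116, plus strand) encodes the monooxygenase that makes 3-hydroxykynurenine. It had 8.65, 14.3 and 11.6 CPM in CKO_CRE, 12.9, 13.4 and 8.77 CPM in WT_CRE, 5.12, 11.5 and 5.91 CPM in CKO_PBS and 7.78, 8.31 and 7.01 CPM in WT_PBS lungs. The WT groups did not overlap, as for 34.4% of all tested genes in this direction, and CKO_PBS replicate 2 lay among the CRE libraries. The log2 change under CRE was 0.62 ± 0.29 in CKO lungs (95% interval -0.05 to 1.28, adjusted p = 0.108) and 0.60 ± 0.29 in WT lungs (-0.06 to 1.27, adjusted p = 0.0933). Without CKO_PBS replicate 2 both passed the test, at 1.06 in CKO lungs (adjusted p = 0.00911) and with an adjusted p of 0.0308 in WT lungs. Without CKO_PBS replicate 1 the value in CKO lungs was 0.40 (adjusted p = 0.316), and with sex as a covariate the value in WT lungs was 0.32 (adjusted p = 0.373). Under CRE the log2 difference between CKO and WT was -0.02 ± 0.29 (-0.68 to 0.64), and under PBS it was -0.04 ± 0.29 (-0.71 to 0.63). Kmo overlaps Fh1 on the opposite strand, whose log2 change was 0.17 ± 0.08 in CKO lungs (adjusted p = 0.118) and which rose by 0.38 ± 0.08 in WT lungs (adjusted p = 0.0022). Its part in the Kmo values was not tested.

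Kynu (ENSMUSG00000026866, chr2:43555329-43682715, plus strand) encodes kynureninase, which cleaves kynurenine and 3-hydroxykynurenine. It had 13.8, 13.6 and 16.8 CPM in CKO_CRE, 20.7, 20.6 and 16.4 CPM in WT_CRE, 5.68, 4.90 and 3.80 CPM in CKO_PBS and 5.31, 5.54 and 4.54 CPM in WT_PBS lungs. The CRE libraries stood far above the PBS libraries, where 24.3% of all tested genes separated upward in CKO and 34.4% in WT lungs. WT_CRE replicate 3 fell just below CKO_CRE replicate 3. CRE raised Kynu by 1.62 ± 0.17 on the log2 scale, or 3.07-fold, in CKO lungs (adjusted p = 9.88e-05) and by 1.90 ± 0.17, or 3.74-fold, in WT lungs (adjusted p = 1.35e-05). Both calls held in all 20 alternative fits. Under CRE the log2 difference between CKO and WT was -0.38 ± 0.16 (95% interval -0.76 to -0.01), with an adjusted p of 0.238 by edgeR and 0.0426 by limma-voom with library weights. Over the 20 alternatives this adjusted p ran from 0.0426 to 0.542. Under PBS the difference was -0.10 ± 0.18 (-0.51 to 0.30).

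Haao (ENSMUSG00000000673, chr17:83831156-83847963, minus strand) encodes the dioxygenase that turns 3-hydroxyanthranilate toward quinolinate. It had 3.97, 6.02 and 3.70 CPM in CKO_CRE, 4.73, 6.56 and 4.81 CPM in WT_CRE, 3.82, 3.79 and 2.21 CPM in CKO_PBS and 3.08, 4.13 and 3.54 CPM in WT_PBS lungs. The WT groups did not overlap, as for 34.4% of all tested genes in this direction, while CKO_CRE and CKO_PBS overlapped. The log2 change under CRE was 0.48 ± 0.27 in CKO lungs (95% interval -0.14 to 1.10, adjusted p = 0.174) and 0.58 ± 0.27 in WT lungs (-0.03 to 1.20, adjusted p = 0.0792). The value in WT lungs passed the test in 3 of 20 alternative fits, was 0.38 (adjusted p = 0.32) with sex as a covariate, and the value in CKO lungs passed in 0 of 20. Between CKO and WT the log2 difference was -0.23 ± 0.26 under CRE (-0.84 to 0.37) and -0.13 ± 0.27 under PBS (-0.75 to 0.49).

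**Figure D4:**
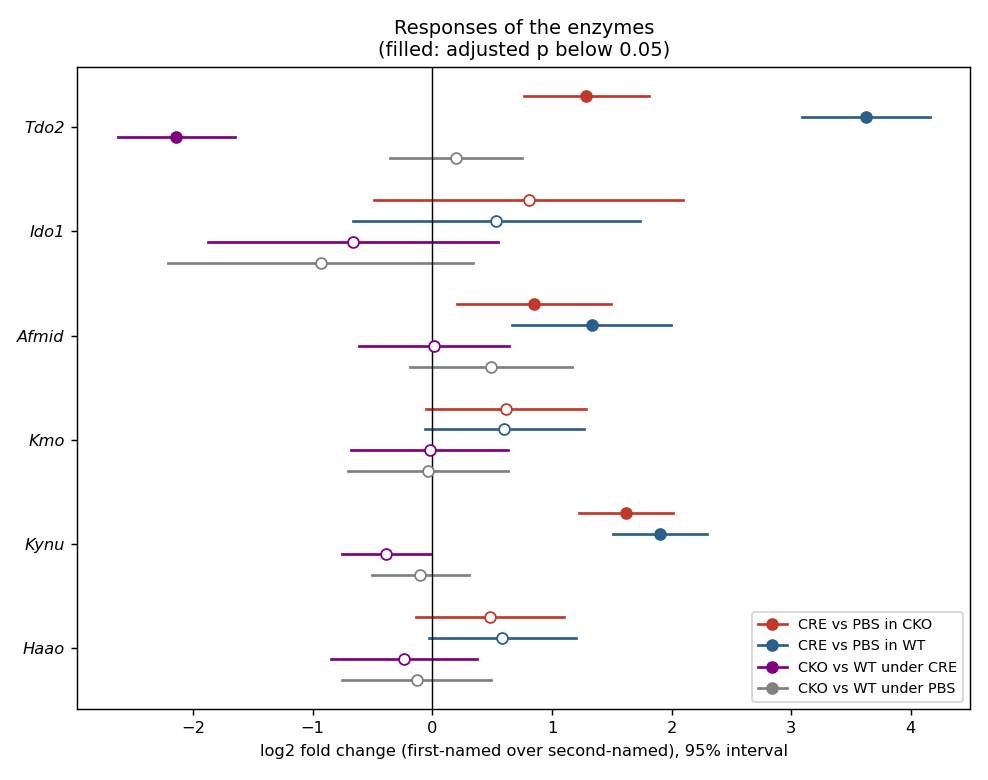
Log2 fold changes of the 6 enzymes (points, with 95% intervals as lines; filled points passed an adjusted p of 0.05) for CRE against PBS in CKO and in WT lungs, and for CKO against WT under CRE and under PBS. Between the genotypes, only the Tdo2 point under CRE is filled, at -2.14, and under PBS all 6 intervals include 0.

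Under PBS, 0 of the 6 members were called between CKO and WT by edgeR, where 0.109% of all tested genes were called. None had an unadjusted p below 0.05, and 0 were called by DESeq2 or by limma-voom. Besides Tdo2, the interaction called none of the members, and the log2 values were 0.27 ± 0.76 for Ido1, -0.48 ± 0.40 for Afmid, 0.01 ± 0.41 for Kmo, -0.28 ± 0.24 for Kynu and -0.10 ± 0.38 for Haao. Their adjusted p-values lay between 0.655 and 0.992.

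Per kb of exon, the order of the members differed between the groups. In WT_CRE lungs Tdo2 stood first, at 6.89 ± 0.733 CPM per kb (SD, n = 3), with Kynu next at 3.13 ± 0.397 and Kmo at 2.48 ± 0.543, and the ranges of Kynu and Kmo overlapped. In CKO_CRE lungs Kmo (2.44 ± 0.594) and Kynu (2.40 ± 0.286) came before Tdo2 (1.56 ± 0.384), again with overlapping ranges for Kmo and Kynu. Under PBS Kmo led in both genotypes, at 1.59 ± 0.731 in CKO and 1.63 ± 0.138 in WT lungs, while Tdo2 averaged 0.639 ± 0.0594 in CKO and 0.561 ± 0.175 in WT lungs. The order depends on the transcript length. By the exons of basic transcripts alone Haao came first in CKO_CRE, CKO_PBS and WT_PBS lungs, and Tdo2 still came first in WT_CRE lungs. By that length Kynu (3.09 CPM per kb) also passed Kmo (2.91) in CKO_CRE lungs. Afmid likewise passed Tdo2 in CKO_PBS (0.765 against 0.723) and Ido1 in WT_CRE lungs (1.37 against 1.19).

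The protein-coding genes whose profile lay closest to that of Tdo2 were Cfi, Nfasc and Cd163. Closeness was the root mean square difference of centred log2 CPM over the 12 libraries, among 13718 candidate genes, and it was 0.410 for Cfi, 0.428 for Nfasc and 0.433 for Cd163, against a spread of 1.44 for Tdo2 itself. The libraries share treatment and genotype, so the measure describes these groups. Cd163, a scavenger receptor of macrophages, had 59.7, 62.5 and 55.1 CPM in CKO_CRE, 150, 151 and 140 CPM in WT_CRE, 12.7, 19.0 and 13.9 CPM in CKO_PBS and 15.2, 19.5 and 19.2 CPM in WT_PBS lungs. Under CRE the log2 difference between CKO and WT was -1.31 ± 0.14 for Cd163 (adjusted p = 0.000693) and -1.28 for Cfi, a protease that inactivates complement (adjusted p = 0.0124). For Nfasc, a cell adhesion gene, it was -1.56 with an adjusted p of 0.0549. The Nfasc profile rests on few counts and is less precise. It had 3 to 8 counts per library in CKO_PBS, 5 to 6 in WT_PBS, 11 to 19 in CKO_CRE and 42 to 55 in WT_CRE lungs. The closest profiles to Kynu were those of Ptpn7, Rnf19b and Lrmp (0.201, 0.210 and 0.213), and those to Afmid were Aif1l, Sbno2 and Gda (0.209, 0.213 and 0.215).

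**Figure D5:**
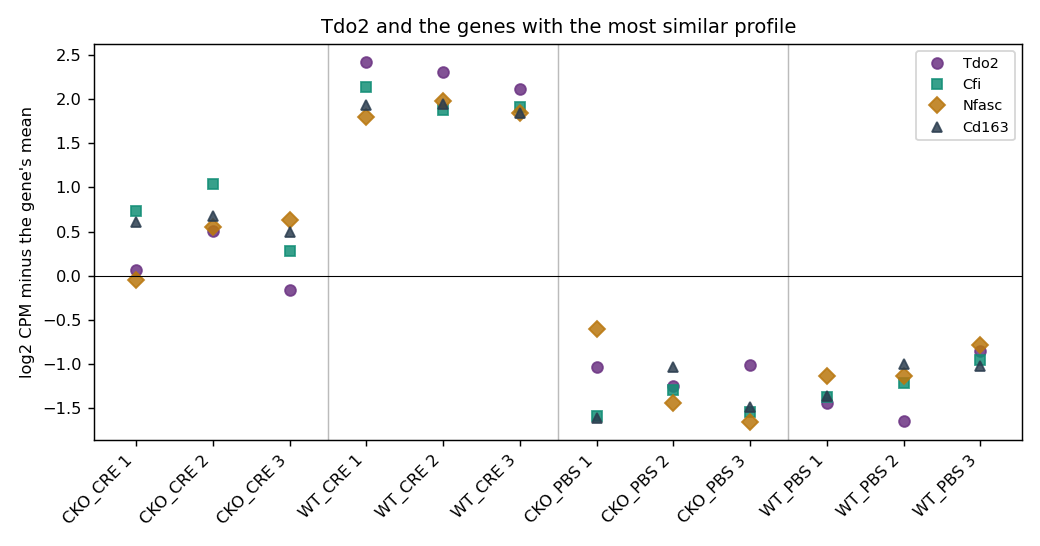
Log2 CPM minus the mean of the gene over all 12 libraries for Tdo2 and the 3 genes with the closest profile, by library. All 4 genes are highest in the WT_CRE libraries, intermediate in CKO_CRE and lowest under PBS.

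Markers of other lung cell types were counted beside the members. Under CRE, 20.6% of all tested genes rose and 18.5% fell in CKO, and 28.6% rose and 28.4% fell in WT lungs. In CKO_CRE against WT_CRE lungs, 0.549% of them were called higher and 0.366% lower. Of 10 interstitial macrophage markers, 9 rose and 1 fell under CRE in CKO lungs, and 8 rose and 1 fell in WT lungs. Their summed level was 2089 to 4113 CPM in CKO_CRE, 3394 to 3491 in WT_CRE, 1194 to 1305 in CKO_PBS and 1110 to 1394 in WT_PBS lungs. Between CKO and WT under CRE, 1 of the 10 was called, Cx3cr1, a chemokine receptor, which was higher in CKO by 1.22 ± 0.19 (adjusted p = 0.0125), and the complement gene C1qa differed by -0.47 ± 0.26 (adjusted p = 0.346). Of 9 alveolar macrophage markers, 2 rose and 2 fell under CRE in CKO lungs (median log2 change -0.14), and 1 rose and 6 fell in WT lungs (median -2.51). In CKO_CRE against WT_CRE lungs 4 of the 9 were higher. Itgax, an integrin gene among them, rose by 2.13 in CKO and by 2.15 in WT lungs. The summed level, which does not follow the count in WT lungs, was 631 to 771 CPM in CKO_CRE, 532 to 594 in WT_CRE, 404 to 453 in CKO_PBS and 396 to 453 in WT_PBS lungs. Of 6 fibroblast markers, 2 rose and 4 fell under CRE in CKO lungs (median -0.59), and 2 rose and 3 fell in WT lungs (median -0.65). The collagen genes Col1a1 and Col1a2 rose in both genotypes and were the 2 markers lower in CKO_CRE than in WT_CRE lungs, where the median of all 6 was 0.12. The fibroblast sum was 3012 to 3359 CPM in CKO_CRE, 4173 to 4639 in WT_CRE, 2185 to 2578 in CKO_PBS and 2108 to 2157 in WT_PBS lungs. Of 5 tested monocyte markers, 5 rose under CRE in CKO and 3 in WT lungs, and of 5 B and plasma cell markers, 3 rose in CKO and 5 in WT lungs. None of these markers was tested for its part in the Tdo2 and Kynu results.

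Other genes of tryptophan use were counted from pathway lists, to be read against the shares of all tested genes that were called under CRE (20.6% higher and 18.5% lower in CKO, 28.6% higher and 28.4% lower in WT lungs). Of 7 amino acid transporters that carry tryptophan, 1 rose and 1 fell under CRE in CKO lungs, and 2 rose and 2 fell in WT lungs. Slc7a8, a light chain of the system L exchanger, rose by 2.72 ± 0.33 in CKO (adjusted p = 0.000202) and 2.65 ± 0.33 in WT lungs (adjusted p = 7.07e-05). Slc7a5, the other light chain, rose by 1.20 ± 0.18 in WT lungs (adjusted p = 0.000204). Slc43a2 changed by -0.30 ± 0.11 in CKO (adjusted p = 0.0391) and by -0.49 ± 0.11 in WT lungs (adjusted p = 0.00207). Slc6a14 changed by -0.44 ± 0.12 in WT lungs (adjusted p = 0.00683). The summed level of the 7 transporters was 397 to 571 CPM in CKO_CRE, 465 to 490 in WT_CRE, 477 to 527 in CKO_PBS and 467 to 501 in WT_PBS lungs. Of 3 tested kynurenine aminotransferases, 1 fell in CKO lungs, and 1 rose and 1 fell in WT lungs. Got2 rose by 0.28 ± 0.10 in WT lungs (adjusted p = 0.0237), and Kyat1 fell by 0.66 in CKO (adjusted p = 0.00292) and by 0.57 in WT lungs (adjusted p = 0.00315). Of 9 genes from quinolinate to NAD and NAD salvage, 3 rose and 1 fell in CKO, and 1 rose and 1 fell in WT lungs. Among them Qprt, which uses quinolinate, rose by 1.54 ± 0.41 in CKO lungs (adjusted p = 0.0122), with 1.04 CPM in CKO_CRE and 0.352 CPM in CKO_PBS lungs. Naprt rose by 0.49 ± 0.13 in CKO (adjusted p = 0.0103) and by 0.85 ± 0.13 in WT lungs (adjusted p = 0.00022). Nmnat2 was the gene that fell, with a log2 change of -0.73 ± 0.17 in CKO (adjusted p = 0.00687) and -1.19 ± 0.18 in WT lungs (adjusted p = 0.000195).

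The serotonin and tryptamine branch is another fate of tryptophan. Of its 8 listed genes 5 were tested, and 3 fell under CRE in CKO lungs and 5 in WT lungs, where 18.5% (CKO) and 28.4% (WT) of all tested genes fell. Inmt, which methylates tryptamine, fell by 1.86 ± 0.30 in CKO (adjusted p = 0.000878) and by 3.42 ± 0.32 in WT lungs (adjusted p = 1.54e-05). Under CRE it averaged 457 CPM in CKO and 150 CPM in WT lungs, a log2 difference of 1.60 ± 0.30 (adjusted p = 0.0317). Slc6a4, the serotonin transporter, was also higher in CKO_CRE than in WT_CRE lungs, by 1.66 ± 0.27 (adjusted p = 0.0148). Both differences run opposite to that of Tdo2.

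The aryl hydrocarbon receptor and GPR35 sense kynurenine pathway products, and 8 genes of these receptors and of receptor targets were counted. Among them 2 rose and 3 fell under CRE in CKO lungs, and 2 rose and 4 fell in WT lungs. Of all tested genes, 20.6% rose and 18.5% fell in CKO, and 28.6% rose and 28.4% fell in WT lungs, so the rising share was near that of all genes. Gpr35, a receptor for kynurenic acid, rose by 1.93 ± 0.20 in CKO (adjusted p = 7.66e-05) and by 2.13 ± 0.20 in WT lungs (adjusted p = 1.6e-05). Cyp1a1, a target of the aryl hydrocarbon receptor, fell by 1.27 ± 0.38 in CKO (adjusted p = 0.0197) and by 2.46 ± 0.40 in WT lungs (adjusted p = 0.00034), while Cyp1b1, another target, rose by 0.65 ± 0.18 in CKO (adjusted p = 0.0159) and by 0.55 ± 0.18 in WT lungs (adjusted p = 0.0235). Nqo1, also a target, fell by 1.33 ± 0.17 in CKO (adjusted p = 0.000254) and by 1.32 ± 0.17 in WT lungs (adjusted p = 9.08e-05). Between CKO and WT under CRE the smallest adjusted p among the 8 was 0.271.

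Interferon and type 2 cytokine genes were set beside the first step, since interferon gamma induces Ido1. Under CRE, 20.6% of all tested genes rose and 18.5% fell in CKO, and 28.6% rose and 28.4% fell in WT lungs. In CKO_CRE against WT_CRE lungs, 0.549% of them were called higher and 0.366% lower. Of 13 interferon genes, 11 rose and 1 fell under CRE in CKO lungs, and 6 rose and 1 fell in WT lungs. The gene that fell was Ifngr1, an interferon gamma receptor gene. Its log2 change was -0.39 ± 0.09 in CKO (adjusted p = 0.00533) and -0.49 ± 0.09 in WT lungs (adjusted p = 0.000687). Cxcl10, an interferon-induced chemokine, rose by 3.63 ± 0.50 in CKO (adjusted p = 0.000366) and by 2.48 ± 0.49 in WT lungs (adjusted p = 0.00116). Ifit1 was higher in CKO_CRE than in WT_CRE lungs by 1.98 ± 0.37 (adjusted p = 0.032). Of 10 type 2 genes, 7 rose in CKO, and 8 rose and 1 fell in WT lungs. Il13 was lower in CKO_CRE than in WT_CRE lungs, at 3.07 against 12.9 CPM (-2.07 ± 0.38, adjusted p = 0.028), as was the eotaxin Ccl24, at 117 against 566 CPM (-2.27 ± 0.40, adjusted p = 0.0234).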

How the data were processed

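Whole-lung RNA of 12 libraries in 4 groups was analysed, all with 1 batch number in the labels. The values were raw read counts per gene in 1 deposited table of 54532 Ensembl identifiers, and 0 sample columns were left unused. The submitters' processing notes name fastp, STAR and the build mm10, without versions. How reads were counted, with which annotation and whether by strand is not given in the sources used here. Depth was 16250674 to 21559210 counts per library, and a library with few counts of a gene gives a less precise value. Symbols, positions and exon lengths came from GENCODE M21 (GRCm38).

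The deposited counts went into edgeR 4.0.16 (on R 4.3.3), scaled by TMM and filtered by filterByExpr, with a mean per group over all 12 libraries. The quasi-likelihood F test was used, with Benjamini-Hochberg adjustment over 17473 genes and a threshold of 0.05. The biological coefficient of variation was 17.4%. Log2 fold changes carry an SE derived from the fold change and the F statistic of that test. Their 95% intervals use the 8 residual degrees of freedom and can be wider than the test implies. For Haao in WT lungs the unadjusted p of the F test was 0.049, although the interval of -0.03 to 1.20 includes 0. CPM uses TMM library sizes, and the test was checked on simulated data.

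Named genes were the 6 members, Rhoa, up to 2 rising and 2 falling called genes of each pathway list per comparison with at least 1 CPM, and the 3 genes with the closest profile to each called member. The members and lists were chosen with earlier results of these data known. Cell-type markers, neighbouring genes and markers within a list are named besides that rule. Alternatives were DESeq2 1.42.0 (its Wald test, and its size factors in edgeR), limma-voom 3.58.1 with library weights, no low-count filter, a replicate block, sex as a covariate, only the groups compared, each library left out, and both libraries with hepatocyte transcripts left out, the last added after the data were seen. Near-identical copies were searched with blastn 2.17.0. A further motif that was searched is not reported here.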

Additional observations from a re-analysis of the deposited data

Results flagged for a closer look

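The CRE response of Tdo2 was called as different between the genotypes, close to the threshold. The log2 difference of the responses, CKO minus WT, was -2.34 ± 0.32 (SE; adjusted p = 0.0458 by edgeR), from a response of 1.29 in CKO and 3.63 in WT lungs. The call was lost in 11 of 19 alternative fits, among them those with sex as a covariate (adjusted p = 0.0614) and with the replicate block (adjusted p = 0.121). All 3 CKO_CRE libraries lay below all 3 WT_CRE libraries, and the PBS groups overlapped.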

How the results depend on the processing

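The 6 members were tested in 5 comparisons under up to 20 alternative settings, which gave 594 values: 24 changed direction, 17 lost the call and 11 gained it. None of the 24 that changed direction belonged to a called value. The Tdo2 and Kynu responses to CRE in both genotypes, the Afmid response in WT lungs and the Tdo2 difference between CKO and WT under CRE kept their calls in all 20.

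The count of members called for CRE in WT lungs was 5 with limma-voom, with only the groups compared and with the replicate block, against 3. Under CRE the count between CKO and WT was 2 with limma-voom, against 1. For the interaction it was 0 with the replicate block and with sex as a covariate, and 0 to 1 with 1 library left out. The cause was not tested.

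Counts of all called genes moved more. For CRE in CKO lungs 3812 were called with only the groups compared, against 6830. Between CKO and WT under CRE there were 838 with the DESeq2 Wald test, 7645 with limma-voom, 691 with no filter, 29 with only the groups compared, 4677 without both libraries that held hepatocyte transcripts, and 38 to 5112 with 1 library left out, against 160. The 5112 came without CKO_CRE replicate 2, the 38 without WT_CRE replicate 1. Without any one of the WT_PBS libraries, CKO_PBS replicate 3, WT_CRE replicates 2 or 3, or CKO_CRE replicate 3, there were 61 to 93. Between CKO and WT under PBS there were 114, 146, 89 and 74 under the first 4 of these settings, and 12 to 53 with 1 library left out, against 19. The 53 came without CKO_CRE replicate 2. For the interaction there were 128 with DESeq2, 4371 with limma-voom, 81 with no filter, 0 with the replicate block, 2 with sex as a covariate, 1613 without both hepatocyte libraries, and 0 to 2660 with 1 library left out, against 8. The 2660 came without CKO_CRE replicate 2.

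Whether the replicate numbers pair the libraries cannot be told, because differently numbered libraries were not compared. Deviations of same-numbered libraries correlated at -0.033 to 0.176, and 4 of 18 pairs exceeded 0.1. Under the replicate block the interaction of Tdo2 was -2.34 with an adjusted p of 0.121.

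The uncalled differences near 0 that changed direction were these. Afmid between CKO and WT under CRE was -0.051 with limma-voom, -0.12 without both hepatocyte libraries and -0.12 to 0.10 with 1 library left out. Kmo in the same comparison was -0.20 to 0.15 with 1 left out, and under PBS -0.48 to 0.17. Under PBS Kynu was -0.24 to 0.044 and Haao -0.25 to 0.089. In the interaction Haao was 0.0042 with sex as a covariate and -0.35 to 0.068 with 1 left out, Kmo was -0.10 without both hepatocyte libraries and -0.19 to 0.46 with 1 left out, and Ido1 was -0.20 to 0.90.

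Depth limits Ido1 most, with 4 to 47 counts per library. The interaction has no value with only the groups compared, because it uses all 4 groups.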

Other observations

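Of 7 genes that consume NAD or its precursor nicotinamide, 4 rose and 1 fell under CRE in CKO lungs, and 4 rose and 1 fell in WT lungs, with 2 not called in each. Of all tested genes, 20.6% rose and 18.5% fell in CKO, and 28.6% rose and 28.4% fell in WT lungs. Nnmt, which methylates nicotinamide, averaged 4.76 CPM in CKO_CRE and 10.3 CPM in WT_CRE lungs, a log2 difference of -1.12 ± 0.21 (adjusted p = 0.0341 by edgeR). Under PBS it averaged 2.25 CPM in CKO and 6.73 CPM in WT lungs (-1.58 ± 0.22, adjusted p = 0.0165), so Nnmt, unlike Tdo2, was called between the genotypes without CRE as well. Parp14 rose under CRE by 0.91 ± 0.17 in CKO lungs (adjusted p = 0.00224), and Sirt1, a deacetylase that uses NAD, fell by 0.62 ± 0.10 in CKO (adjusted p = 0.000931) and by 0.60 ± 0.10 in WT lungs (adjusted p = 0.000433).

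Of 2 tested genes of the glutarate branch, Dhtkd1 fell under CRE by 0.91 ± 0.32 in CKO (adjusted p = 0.0386) and by 1.77 ± 0.33 in WT lungs (adjusted p = 0.000911). Of 7 tested genes of the GCN2 response to amino acid shortage, only Sesn2 was called under CRE in WT lungs. It fell there by 0.43 ± 0.12 (adjusted p = 0.0077), and the smallest adjusted p of the 7 in CKO lungs was 0.0671. These counts stand beside 20.6% of all tested genes called higher and 18.5% lower under CRE in CKO lungs. In WT lungs the shares were 28.6% higher and 28.4% lower. For the tryptophanyl-tRNA synthetases Wars and Wars2 the smallest adjusted p was 0.172 in CKO and 0.32 in WT lungs. Ctso, whose end lies 365 bases from that of Tdo2, differed by -0.16 ± 0.10 between CKO and WT under CRE (adjusted p = 0.406).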
